A study of Mus musculus with 3 samples.

Results

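Neat1, Malat1 and H19 are long non-coding RNAs, and the peaks described here are all deposited Tet2 peaks whose midpoint lies in the span of one of these 3 genes on the mouse build mm10. The rule found 23 peaks among the 8196 of the series: 14 in Neat1, 3 in Malat1 and 6 in H19. By library, 6 of 3019 peaks lay in these genes in replicate 1, 10 of 2800 in replicate 2 and 7 of 2377 in replicate 3. The peaks came from CLIP, in which ultraviolet light joins a protein to the RNA it touches before the protein is pulled down and the RNA sequenced. The protein was endogenous Tet2, an enzyme that oxidises 5-methylcytosine. The single group consisted of C57BL/6 bone marrow derived mast cells grown with interleukin-3 at 10 ng/ml and stem cell factor at 5 ng/ml. No genotype change or other agent was labelled, and no source used here gives the age or number of the mice. Cells above 97.5% purity for the mast cell surface receptors FcεRI and c-Kit were cross-linked at 400 and then 200 mJ per cm2. The 3 libraries are described as biological replicates. Nothing says that they came from separate animals, so the spread between them may be partly technical. No input library, control antibody library or RNA level was analysed here, so how much of each RNA the cells held, and the word abundant for these RNAs, could not be checked.

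Neat1 and Malat1 are neighbouring genes whose RNAs stay in the nucleus. Neat1 RNA is the scaffold of paraspeckles, nuclear bodies built around a long Neat1 transcript. A shorter Neat1 transcript begins at the same start site and covers only the 5′ part of the gene. Malat1 RNA gathers at nuclear speckles, which store splicing factors, and its 3′ end is cut off to give mascRNA, a small tRNA-like RNA. H19 is an imprinted gene, expressed from the maternal copy, next to the paternally expressed growth factor gene Igf2, and it is the host of the microRNA gene Mir675.

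In the RefSeq annotation of GRCm38.p6, Neat1 spans chromosome 19 from 5824708 to 5845480 (20773 nt) and Malat1 spans chromosome 19 from 5795690 to 5802672 (6983 nt). H19 spans chromosome 7 from 142575530 to 142578146 (2617 nt). The annotation gave gene spans without exons, so exon and intron positions were not analysed here. Malat1 and Mir675 are on the minus strand in the reference tables, and H19 was read on the strand of Mir675. Neat1 was read on the minus strand from general knowledge of the mouse gene. None of the 23 midpoints lay in a second annotated gene span.

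The Mir675 hairpin is shown because it is the annotated sequence landmark between the H19 sites described below. It lies at chr7:142577064-142577147 on the minus strand (RefSeq, GRCm38.p6), 84 nt long, and the capitals mark its mature 5p and 3p arms. In the mature sequences the capitals mark the seed, bases 2 to 8.
Mir675 hairpin: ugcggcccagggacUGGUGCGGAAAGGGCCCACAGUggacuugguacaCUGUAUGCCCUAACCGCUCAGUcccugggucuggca
mmu-miR-675-5p: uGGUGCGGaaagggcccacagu
mmu-miR-675-3p: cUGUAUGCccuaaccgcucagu

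Heights are given in units of the smallest step in each library's deposited normalized heights, and those heights sum to 19213, 18270 and 15431 units in replicates 1, 2 and 3. No source states if 1 unit equals 1 read, so sequencing depth is unknown. The median peak of every library stood at 4 units and was 53 nt wide. A peak in at least 1 library was present in 7 of 15 mast cell marker genes, with Gata2, Slc18a2, Kit and Hdc the tallest, while Fcer1a and Ms4a2 held none. Of 5 markers each, macrophages had 1 gene with a peak (Adgre1, 3 units in replicate 2), neutrophils and lymphocytes had 0, and the erythroid or megakaryocytic list had 1 (Itga2b, 4 units in each library). Over all protein-coding genes 14.1% had a peak in any library, so lists of 5 genes are too short to read a low count from.

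All 3 genes held a peak in every library. That was the case for 0.487% of 12727 annotated long non-coding genes, and 2.37% of them held a peak in at least 1 library. Together the 3 genes took 0.411%, 0.591% and 0.518% of the summed height in replicates 1, 2 and 3, or 0.507% ± 0.0905 (SD, n = 3). This was 6.22% ± 1.06 (SD, n = 3) of the height of all peaks in long non-coding genes. Each library had 4 member peaks of 10 units or more, and the same 4 places gave them each time: 1 in Neat1, 1 in Malat1 and 2 in H19. Peaks of that height were 9.90%, 11.04% and 9.89% of all peaks.

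**Figure D1:**
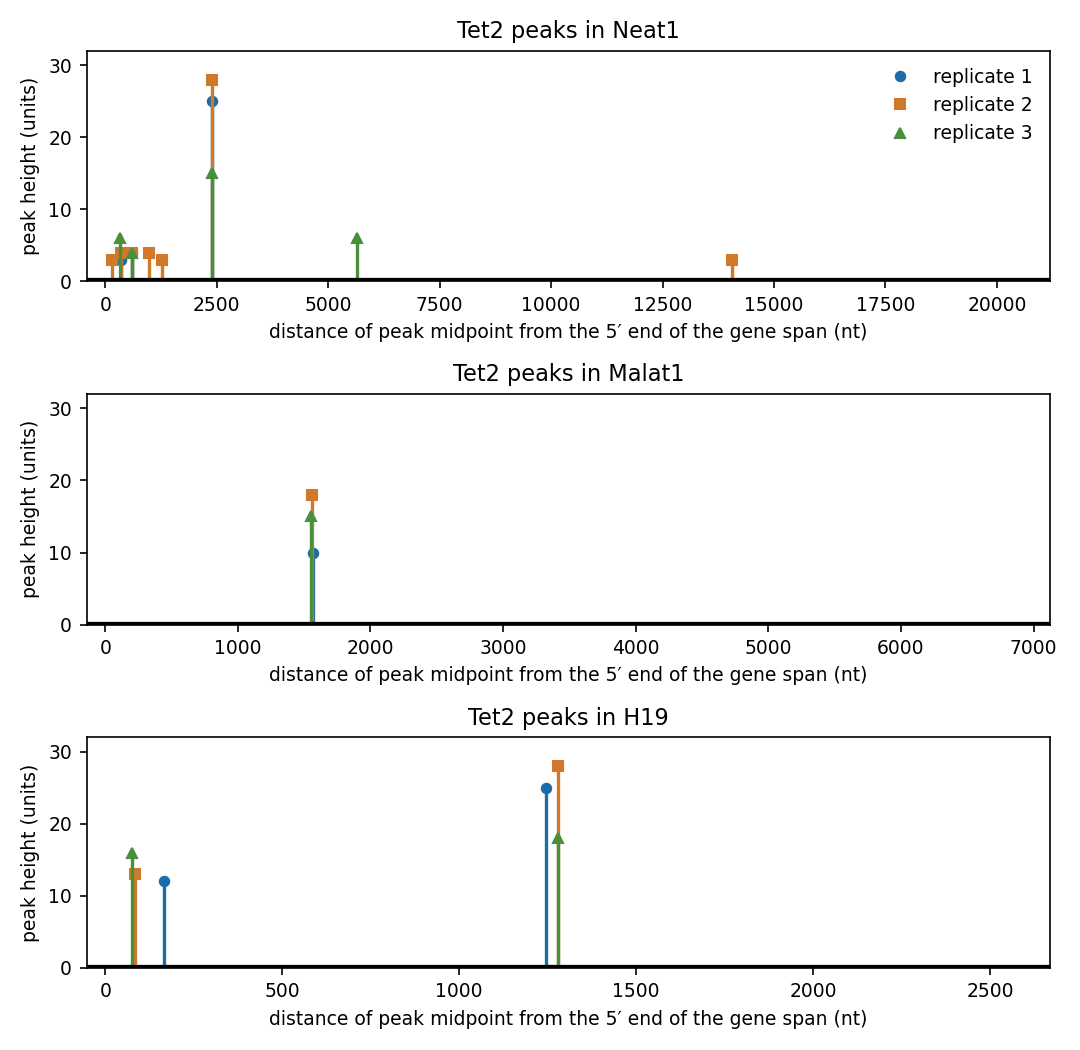
Tet2 peaks along Neat1, Malat1 and H19, with each peak drawn at the distance of its midpoint from the 5′ end of the gene span (nt) and as tall as its height in units, in replicates 1 (circles), 2 (squares) and 3 (triangles). Neat1 has its tallest peak at 2389 to 2405 nt in every library with low peaks before it, Malat1 has 1 position at 1555 to 1570 nt, and H19 has 2 positions.

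Neat1 held the most peaks of the 3 genes, with 3 in replicate 1, 7 in replicate 2 and 4 in replicate 3. Most of these were low: at 5 units or more it held 1.67 per library, against 2 in H19. Its summed height was 32, 49 and 31 units, or 0.212% ± 0.0517 of the library (SD, n = 3). Replicate 2 had the most peaks and the greatest height. As a share of its own library's summed height, Neat1 took 0.167%, 0.268% and 0.201% in replicates 1, 2 and 3. The tallest peak lay at 5843070 to 5843079 in replicate 1, 5843070 to 5843111 in replicate 2 and 5843069 to 5843109 in replicate 3. It reached 25, 28 and 15 units, which was higher than 97.5%, 97.6% and 94.8% of the peaks of the same library. The overlap of this site between libraries was 10, 10 and 40 nt for the pairs 1 and 2, 1 and 3, and 2 and 3. Replicate 3 was the low library here, and it held the peak at the same position as the others. This single peak made up 78.1%, 57.1% and 48.4% of the Neat1 height.

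A pair of low Neat1 sites also recurred in every library. The site at 5844858 to 5844915, 592 to 593 nt from the 5′ end, stood at 4 units in each of the 3 libraries. The site at 5845096 to 5845147, 338 to 361 nt from the 5′ end, stood at 3, 4 and 6 units. The 4-unit peaks of both sites were at the median height of all peaks. At the second site, the 3-unit peak of replicate 1 was higher than only 0.0331% of that library's peaks. The 6-unit peak of replicate 3 was higher than 77.4% of its library's peaks. That replicate 3 peak was 1 nt wide and shared its nucleotide with each of the others at the second site. Counting peaks that overlap by at least 1 nt as a locus, 3 of 8 Neat1 loci had a peak in all 3 libraries. The same held for 0 of 2 Malat1 loci, 0 of 5 H19 loci and 11.1% of all 5969 loci.

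The other 5 Neat1 peaks were each found in a single library. Replicate 2 alone had peaks at 159, 984, 1264 and 14052 nt from the 5′ end, of 3, 4, 3 and 3 units. Replicate 3 alone had a peak of 6 units at 5655 nt. The 4 peaks that replicate 2 held alone were at or below the median height of its list. Those of 3 units were near its lowest, each higher than only 0.143% of its peaks.

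Neat1 peaks were placed toward the 5′ end of the gene. All 3 peaks of replicate 1, 6 of 7 of replicate 2 and 3 of 4 of replicate 3 lay in the 5′ 20% of the span. That part held 100%, 93.9% and 80.6% of the Neat1 height. The short and the long Neat1 transcript both contain the 5′ end, so these peaks cannot be assigned to either. The 2 peaks outside that part, at 5655 and 14052 nt, were found in 1 library each. No peak of any library lay in the 22035 nt between the Malat1 and Neat1 spans or in Frmd8, the next gene on the other side of Neat1.

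Malat1 held a single peak in each library. The peak lay at 5801092 to 5801111 in replicate 1 (20 nt wide), 5801109 to 5801111 in replicate 2 (3 nt) and at 5801117 in replicate 3 (1 nt). Its height was 10, 18 and 15 units, or 0.0826% ± 0.0265 of the summed height (SD, n = 3). Replicate 1 was the lowest, at 0.0520% of its library, and replicates 2 and 3 were close in share, at 0.0985% and 0.0972%. The midpoints were 1555 to 1570 nt from the 5′ end. Peaks of replicates 1 and 2 shared 3 nt, and the replicate 3 peak lay 5 nt from both, so no Malat1 nucleotide was covered in all 3 libraries. Joining peaks within 100 nt of each other gave 1 site with a peak in every library. Neither the 58 nt of mascRNA at the 3′ end nor the promoter window of Malat1, from 250 nt before to 50 nt after its start, held the midpoint of a peak.

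H19 held 2 peaks in each library, although it is the shortest of the 3 genes. Its summed height was 37, 41 and 34 units, or 0.212% ± 0.0173 of the library (SD, n = 3), and the libraries lay closer together than for Neat1. The taller site, in the middle of the gene, lay at 142576886 to 142576915 in replicate 1, 142576851 to 142576883 in replicate 2 and 142576849 to 142576883 in replicate 3. Its heights were 25, 28 and 18 units, which exceeded 97.5%, 97.6% and 96.1% of the peaks in the respective libraries. Replicates 2 and 3 shared 33 nt, and the replicate 1 peak began 2 nt beyond them. The midpoints were 1245 to 1280 nt from the 5′ end of H19.

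The lower H19 site was near the 5′ end of the gene. It lay at 142577977 to 142577984 in replicate 1, at 142578063 in replicate 2 and at 142578064 to 142578078 in replicate 3, with heights of 12, 13 and 16 units. The order of the libraries differed from the taller site, where replicate 3 was the lowest. Replicates 2 and 3 abutted without sharing a nucleotide, 83 and 75 nt from the 5′ end. The replicate 1 peak, 165 nt from the 5′ end, was 78 nt from the peak of replicate 2. The taller site lay 148, 180 and 180 nt to the 3′ side of the Mir675 hairpin printed above, and the lower site 829, 915 and 916 nt to its 5′ side. The hairpin itself held no peak midpoint in any library.

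**Figure D2:**
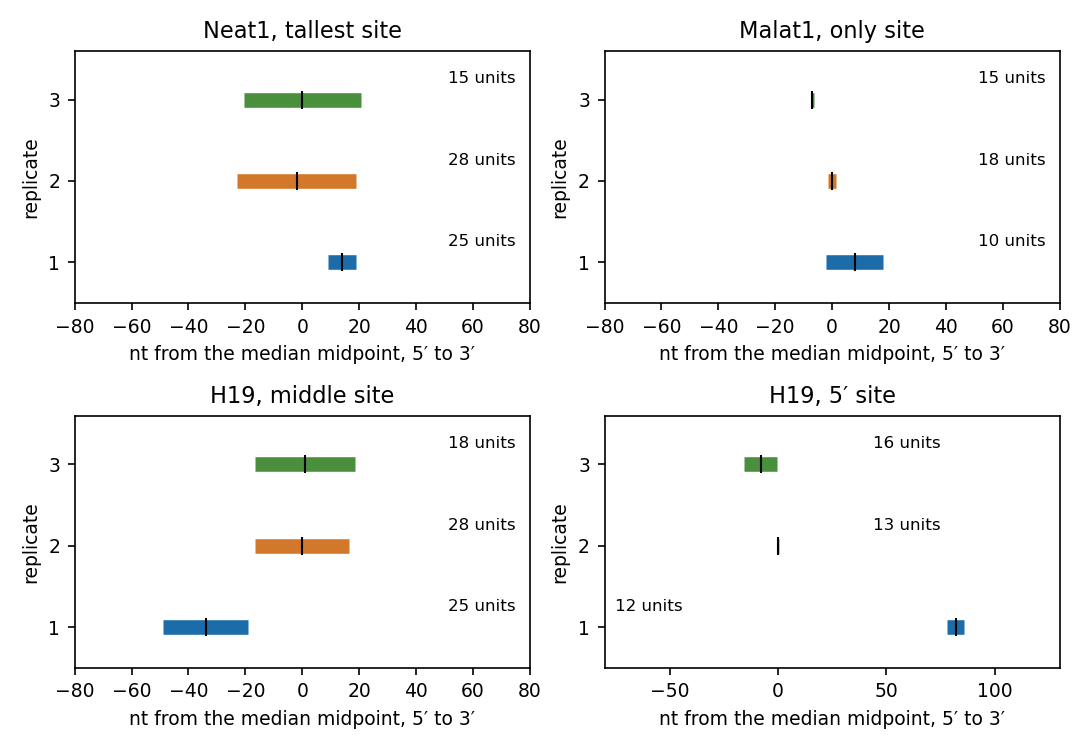
Position of the peaks of the 4 tall sites in each replicate, as bars from the start to the end of the peak with a tick at the midpoint, in nt from the median midpoint of the site along the RNA from 5′ to 3′. At Neat1 the 3 bars overlap, while at Malat1 and at both H19 sites no position is shared by all 3 replicates, and the replicate 1 bar of the H19 5′ site stands 78 nt from that of replicate 2.

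The 4 tall sites were thus found in all 3 libraries within 100 nt, and 1 of them by a shared nucleotide. Of all 401 sites joined within 100 nt that had a peak of 10 units or more, 86.5% had a peak in all 3 libraries. Of those 347 sites, 25.9% had no overlapping locus with a peak in all 3 libraries, as at Malat1 and both H19 sites. The peaks at the 4 sites were 1 to 42 nt wide, and their median width was 15, 18 and 25 nt in replicates 1, 2 and 3. Other peaks of 10 to 28 units had median widths of 25, 27 and 28 nt, above those of the 4 sites in each library. Of these other peaks, 72.4% to 75.8% were at most 42 nt wide. That limit is the widest peak of the 4 sites, so all peaks of the 4 sites meet it. How common peaks of only 1 to 3 nt were was not counted.

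Of the 3 genes, H19 had the most signal for its length. Per kb of gene span, H19 took 0.0812% ± 0.00662 of the summed height, Malat1 took 0.0118% ± 0.00379 and Neat1 took 0.0102% ± 0.00249 (SD, n = 3 each). This was not particular to H19: Gm19951, another long non-coding gene with 2 peaks in each library, took a mean of 0.0873% per kb. H19 was 6.64 to 9.18 times as high as Neat1 and 6.05 to 9.87 times as high as Malat1 in the same library, and its lowest library was above the highest of either. Neat1 and Malat1 did not differ beyond their spread in height per kb, with Malat1 above Neat1 in 2 of 3 libraries. In number of peaks, Neat1 had 0.225 ± 0.100 per kb, Malat1 0.143 in every library and H19 0.764 in every library. The Neat1 excess over Malat1 was 0.0814 ± 0.100 peaks per kb (SD, n = 3) and came to 0.00121, 0.194 and 0.0494 in replicates 1, 2 and 3. With only peaks of at least 5 units it turned to -0.0630. An exact sign-flip permutation test over 3 libraries, two-sided, cannot go below p = 0.25. That value was reached for all 3 pairs in peaks per kb and for both pairs with H19 in height per kb (adjusted p = 0.3 over 6 comparisons), and Neat1 against Malat1 in height per kb gave an exact p of 0.5. These lengths are spans of the gene, not of spliced RNA.

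Among the 301 long non-coding genes with a peak in at least 1 library, Neat1 had the most peaks per library, 4.67 ± 2.08 (SD, n = 3). In replicate 1, 2900052L18Rik had 4 peaks against 3 in Neat1, and at 5 units or more Neat1 came below H19, as given above. By mean share of height, H19 came 7th, Neat1 8th and Malat1 18th of these genes. Among all 3467 genes with a peak, H19 came 42nd, Neat1 43rd and Malat1 162nd. H19 and Neat1, at means of 37.3 units each, do not differ beyond their spread, and they came to this height with 2 and with 3 to 7 peaks. The other long non-coding genes with greater shares were Gm36876, Gm34295, Gm39429, Gm19951, D130009I18Rik and Gm30821, which held 1 or 2 peaks in each library.

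**Figure D3:**
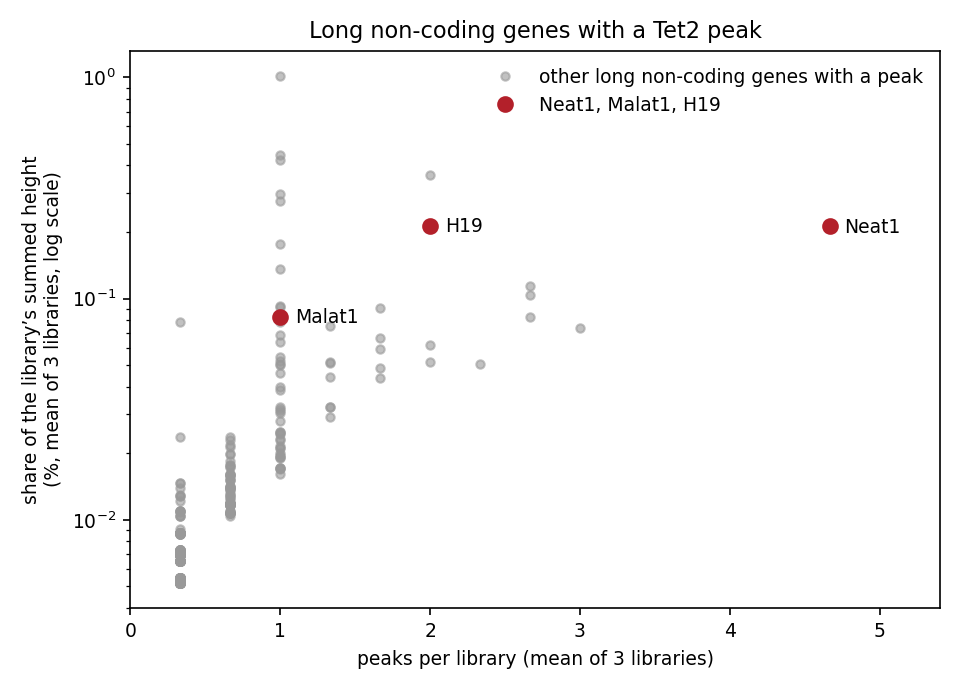
The 301 long non-coding genes with a Tet2 peak, by mean number of peaks per library (x axis) and mean share of the library's summed height (%, log scale, y axis), each the mean of 3 libraries. Neat1 lies farthest right at 4.67 peaks, level with H19 at 0.212% of the height, and Malat1 lies among the genes with 1 peak per library.

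Genes of the most similar profile were sought by distance over the 3 libraries in log2(1 + peaks) and log2(1 + summed units). The nearest to Neat1 was Por, which encodes cytochrome P450 reductase, at a distance of 0.645 (4, 7 and 4 peaks and 34, 66 and 24 units). St6galnac3 and Leng8 followed at 0.932 and 0.996. The nearest to Malat1 were Lor (0.183), Kctd20 (0.395) and Cebpg (0.396), each with 1 peak per library. Near H19 were Tmed8 (0.333) and Map3k6 (0.490), each with 2 peaks per library. All of these named genes are protein-coding, and the distance describes likeness over 3 libraries only.

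The tallest peaks of other nuclear and regulatory long RNAs were lower than those of Neat1 and H19. Of 33 such genes besides Neat1, Malat1 and H19, 7 held a peak in at least 1 library (21.2%) and 3 in all 3 libraries, against 6.94% and 1.56% of all annotated genes. Xist and Tsix, 2 of the 3, hold the same peaks, and at 5 units or more 3 genes in place of 7 held a peak. The list also holds Rn7sk and Terc, and its members were chosen as known RNAs. The median tallest peak of the 7 was 4 units, as for all genes with a peak. Xist, the RNA that silences an X chromosome, held peaks of up to 11, 9 and 6 units, with 1 locus in all 3 libraries, in a span shared with its antisense gene Tsix. The files give no strand, so the peaks cannot be credited to either gene. Rn7sk, the RNA that holds the elongation factor P-TEFb inactive, reached 6, 7 and 8 units. These were not at a shared place: Rn7sk had no locus, and no site joined within 100 nt, with a peak in all 3 libraries. Lncpint held 1 peak of 4 units in replicate 2 alone. Rian, an imprinted non-coding RNA, stood at 3, 3 and 0 units, while Meg3, Kcnq1ot1 and Airn held no peak. Every library's tallest Neat1 and H19 peak was above its tallest peak in any gene of this list, and so was Malat1 in replicates 2 and 3 but not in replicate 1, where Xist and Tsix reached 11 units.

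Imprinted genes other than H19 held a peak in 11 of 42 cases (26.2%), and 8 of the 42 held a peak in every library. The same shares over all annotated genes were 6.94% and 1.56%, and a peak in at least 1 library was present in 14.1% of protein-coding genes. The median tallest peak of the 11 was 8 units. Cdkn1c, a maternally expressed inhibitor of cyclin-dependent kinases, held a peak of 23, 24 and 21 units at 143459984 to 143459999 on chromosome 7. The replicate 3 peak overlapped both others, which shared no nucleotide with each other, and the peaks were 3 to 16 nt wide. Peg3, a paternally expressed zinc finger gene, held 1 peak of 16, 18 and 12 units. Gnas, which encodes the stimulatory G protein alpha subunit, held 4, 3 and 3 peaks with a tallest of 18, 16 and 9 units. Of the Gnas peaks, 1 of 4 units in each of replicates 2 and 3 also lay in the span of Gm30189. Plagl1, a zinc finger transcription factor, held 1 peak of 15, 13 and 16 units in a span shared with Hymai. In each of these genes 1 locus, joined through overlaps of at least 1 nt, had a peak in all 3 libraries.

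Igf2, the partner of H19 in the same imprinted domain, was named after its values were seen. Its span begins 72621 nt from that of H19 on chromosome 7. Igf2 held 3 peaks in each library, of 7, 6 and 6 units in replicate 1, 4, 8 and 7 units in replicate 2, and 5, 5 and 6 units in replicate 3, in order of position. All 3 of its loci overlapped in all 3 libraries, at 142653917 to 142653998, 142655746 to 142655816 and 142658364 to 142658407. Igf2 took 0.102% ± 0.00286 of the summed height (SD, n = 3), below H19 in every library. Nctc1 and Gm33148, the genes annotated on either side of H19, held no peak. Dlk1, a paternally expressed regulator of growth, and Rtl1 of the same domain reached 8, 8 and 4 units and 7, 6 and 5 units, and were likewise named after their values were seen.

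**Figure D4:**
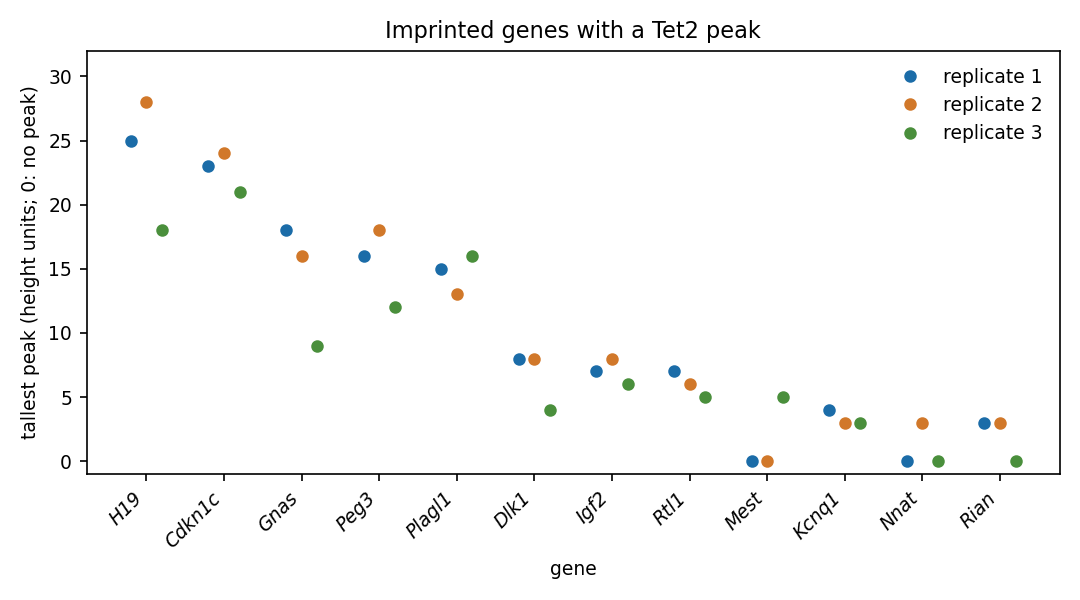
Height of the tallest Tet2 peak (units; 0 where a library has no peak) in H19 and the 11 other imprinted genes with a peak, with 1 point for each of 3 replicates. H19, Cdkn1c, Gnas, Peg3 and Plagl1 lie at 9 units or more in every replicate, and Mest, Nnat and Rian lack a peak in at least 1.

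The protein partners of these nuclear bodies were looked at through their own messenger RNAs. Of 27 genes for paraspeckle and speckle proteins, 15 held a peak in at least 1 library (55.6%) and 8 in all 3. The same counts over the 21900 protein-coding genes were 3086 (14.1%) and 693. The median tallest peak of the 15 was 5 units, where protein-coding genes with a peak had a median of 4. Son, a large speckle protein, reached 3, 4 and 8 units. Dazap1 reached 5, 4 and 7 units, and the splicing factor Srsf1 reached 6, 7 and 3. Hnrnpm held 1 peak of 7 units in replicate 2 alone. Srsf2 reached 7, 0 and 3 units in a span shared with Mfsd11. Among the core paraspeckle proteins, Rbm14 held peaks of up to 5, 4 and 4 units, and Sfpq, Nono and Pspc1 held none. The Rbm14 span shares at least 1 peak with Gm21992. The part of RNA level in any of these shares was not tested.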

How the data were processed

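Tet2 CLIP libraries of mouse bone marrow derived mast cells were analysed as 3 replicates of 1 group. The authors deposited a signal for every peak, its normalized height, together with chromosome, start and end. Per the submitters' processing notes, cutadapt 1.9, STAR 2.4.0i and mm10 were used. A peak needed a valley on each side, per the labels' protocols; no source used here gives the caller's settings. Each library's heights sum to 1 and are whole multiples of 1 step (tolerance 0.05 steps), and were expressed in such steps. Starts were read as 0-based, because no peak had an end equal to its start, and coordinates are printed 1-based.

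A peak belongs to every RefSeq span (GRCm38.p6, 49980 spans, those of unknown chromosome left out) that holds its midpoint. Peaks sharing at least 1 nt form a locus, a step checked on simulated peaks. Identical start and end were found for 4.25% to 5.89% of the smaller list of each pair of libraries, so none was a copy. The 3 genes and all lists were chosen with earlier results of these data known. Named genes were, by rule, the 3 genes, up to 4 per list with the tallest peak (ties by name), the 3 nearest in profile and the neighbours; some of these are not reported here. Outside this rule fall Srsf2, tied with the fourth of its list, Rbm14, Igf2, Dlk1, Rtl1, Rian, Mest, Nnat, Itga2b and Adgre1. So do the mast cell markers, 2900052L18Rik and the 6 other long non-coding genes ranked by height. Genes named only as sharing a span or as holding no peak also fall outside it. Alternatives covered peak height, span overlap, joining distance and leaving out each library. Python 3.11.15, numpy 2.4.6, pandas 2.3.3 and statsmodels 0.14.6 were used. Peak sequences need a genome and were not analysed here.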

Additional observations from a re-analysis of the deposited data

How the results depend on the processing

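Counting a peak by any nucleotide inside the span, rather than by its midpoint, kept all 13 results tried within their limits, and asking for overlap of 50% of the shorter peak kept the number of loci in all 3 libraries for the 3 genes. With only peaks of at least 5 units, Neat1 had 1.67 peaks per library, 0.153% of the summed height and 1 locus in all 3 libraries, the Neat1 excess over Malat1 turned to -0.0630 peaks per kb, and 3 other nuclear RNAs held a peak; Malat1 and H19 lost none of their peaks. Joining peaks within 100 nt, or within 200 nt (a distance chosen after the data were seen), gave 1 Malat1 site and 2 H19 sites in all 3 libraries where overlap gave 0; Neat1 had 3 at 100 nt and 2 at 200 nt. Leaving out 1 library at a time, loci present in all remaining libraries numbered 0 to 1 for Malat1 (1 without replicate 3) and 0 to 1 for H19 (1 without replicate 1). The planned division of the span into 5 parts in place of 10 gives the same 5′ 20% and is no test of it. Depth is unknown, so peaks missing from a library may lie below what its list holds. Without a control library or RNA levels, binding and RNA abundance cannot be told apart.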
